A study of Mus musculus with 16 samples.

Results

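The endoplasmic reticulum (ER) chaperones and the unfolded protein response were followed through 33 listed mouse genes, of 55487 in the deposited table, in whole liver RNA of wild type C57BL/6J mice aged 12 weeks. The genes were listed by name for their function, with earlier results of these data known, and all were found: 17 chaperones and folding enzymes, 7 genes of ER-associated degradation (the removal of misfolded proteins), 5 sensors and transcription factors and 4 targets of the factor ATF4. The livers came from mice under intermittent hypoxia, overlap hypoxia (both kinds of exposure combined, per the series title), sustained hypoxia or room air, with 4 libraries in each group. No oxygen level or length of exposure is stated in the sources. Every library has a different number in its description, which is not stated to stand for a mouse, so the p-values cover library-to-library spread, part of which may be technical.

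The ER folds secreted and membrane proteins, and is abundant in hepatocytes, which secrete most plasma proteins. When unfolded proteins build up, the sensors IRE1, PERK and ATF6 signal to the nucleus. IRE1 splices the Xbp1 transcript so that it encodes an active factor, PERK slows translation and thereby favours translation of ATF4, and cleaved ATF6 and XBP1 raise the transcription of chaperones and degradation genes. Splicing, translation and cleavage are not visible in counts per gene, so the values below are levels of total transcript.

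Levels are CPM, the counts of a gene scaled to a common library size, and changes are log2 ratios from edgeR's quasi-likelihood test, with a gene called at an adjusted p under 0.05 over all 14553 genes tested. All 33 members passed the filter on low counts. Totals ran between 10940275 counts (overlap hypoxia replicate 3) and 64789635 counts (sustained hypoxia replicate 2). The tissue label was checked because the extraction text names retina: hepatocyte markers summed to 51003 to 82274 CPM, Rcvrn of photoreceptors was at 0 in all 16 libraries and Gnat1 lay at 2.80 to 10.6 CPM. The share of counts in ribosomal RNA genes differed between groups, at 18.5% to 34.8% in intermittent hypoxia, 2.54% to 16.8% in overlap hypoxia and 1.55% to 2.77% in sustained hypoxia, against 1.57% to 10.2% in room air. Of these ribosomal RNA counts, 100% lay in a single gene, CT010467.1, of 354 such genes. Mitochondrial transcripts took 6.23% to 11.7% in intermittent hypoxia, 2.54% to 7.17% in overlap hypoxia and 1.44% to 1.73% in sustained hypoxia, against 1.18% to 2.75% in room air. Of 10 Kupffer cell markers, 9 were lower in intermittent hypoxia and 9 in overlap hypoxia, with summed levels of 43.5 to 95.5 CPM and 50.4 to 60.2 CPM, against 118.0 to 220.2 CPM in room air. B and plasma cell markers, whose cells are rich in ER, summed to 12.9 to 16.7 CPM in intermittent hypoxia and 5.94 to 12.7 CPM in overlap hypoxia, against 18.1 to 24.2 CPM in room air. Of 8 sinusoidal endothelial markers, 4 were lower in overlap hypoxia (summed 54.2 to 93.9 CPM), and 1 was lower and 2 higher in intermittent hypoxia (127 to 137 CPM), against 107 to 138 CPM in room air. Of 6 hepatocyte markers, 2 were lower in intermittent hypoxia, and of 8 stellate cell and fibroblast markers 2 were higher. Over all genes tested, 18.3% were called lower and 18.9% higher in intermittent hypoxia than in room air. In overlap hypoxia over room air, 2.89% were called lower and 3.41% higher. The part of these cell types in the results was not tested, and in whole liver fewer cells of a type and less RNA per cell cannot be told apart.

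The chaperone transcripts were lower together in intermittent hypoxia. Of the 17 chaperones and folding enzymes, 14 were called lower than in room air, 0 were called higher, and Pdia4, Manf and Hyou1 were not called. Over all 14553 genes tested, 18.3% were called lower and 18.9% higher, 37.1% in either direction. The log2 change was below 0 for each of the 17, with a median of -0.82 beside a median of 0.03 over all genes. For 14 of the 17, the 4 intermittent hypoxia libraries lay below all 4 room air libraries, which held for 18.0% of all genes. Across all 33 members, 17 were lower and 2 higher, so 3 of the 17 lower calls came from the degradation genes and the 2 higher calls were Syvn1 and Ern1.

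**Figure D1:**
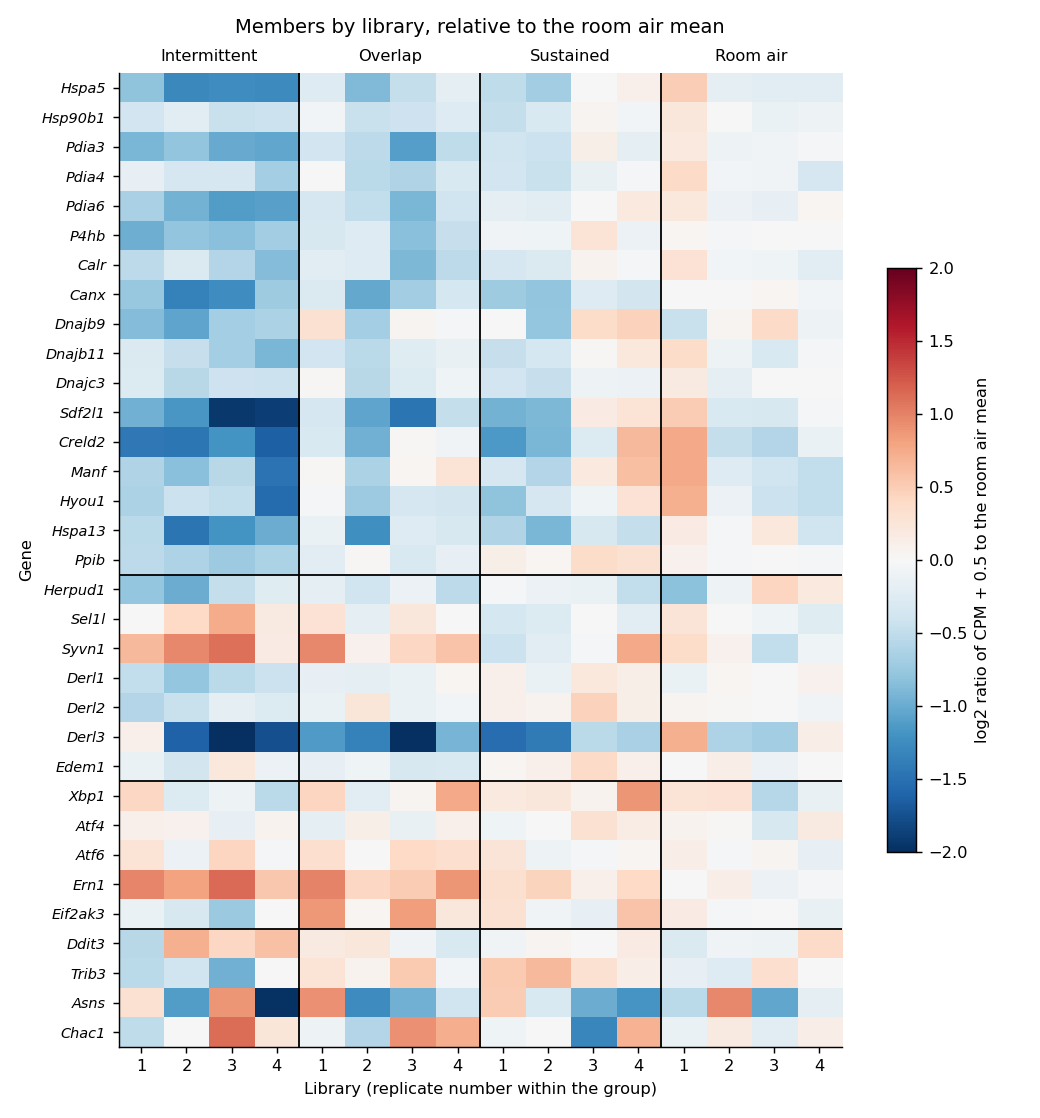
Log2 ratio of each member's level (CPM + 0.5) to its room air mean, in 16 libraries by group, with horizontal lines between chaperones, degradation genes, sensors and factors, and ATF4 targets; colours end at -2 and 2. The chaperone rows are blue in all 4 intermittent hypoxia libraries, paler in overlap hypoxia, and lighter in sustained hypoxia replicates 3 and 4 than in replicates 1 and 2.

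Hspa5 encodes BiP, the ER's main HSP70 chaperone, which also binds the 3 sensors and keeps them inactive. It lies at chr2:34771970-34777547 on GRCm38 and had 296, 213, 220.3 and 214 CPM in intermittent hypoxia, 433, 282, 374 and 455 CPM in overlap hypoxia and 367, 321.4, 516 and 559 CPM in sustained hypoxia, against 732, 456, 449 and 445 CPM in room air. All intermittent hypoxia libraries lay below all others but 1: overlap hypoxia replicate 2 came within the range of the intermittent group. The change in intermittent hypoxia over room air was -1.14 (SE 0.21, adjusted p = 0.000298), a level 0.453 times that of room air. Room air replicate 1 stood apart at 732 CPM, and without it the change was still called at -0.94. Hsp90b1, which encodes the ER's HSP90 (GRP94), had 373, 418, 357 and 361 CPM in intermittent hypoxia, 467, 359, 366 and 406 CPM in overlap hypoxia and 350.2, 396, 507 and 467 CPM in sustained hypoxia, against 568, 483, 443 and 452 CPM in room air. Its intermittent and room air libraries did not overlap, but the change was small, -0.37 (SE 0.14, adjusted p = 0.0424), and was not called without room air replicate 1 or 2 or without intermittent hypoxia replicate 1, 3 or 4 (adjusted p 0.0599 to 0.118). A share of 10.3% of its exonic length lies opposite 1810014B01Rik, from which its reads cannot be told apart without strand.

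The protein disulfide isomerases, which form and rearrange disulfide bonds, fell together apart from Pdia4. P4hb, the most abundant of them, also a subunit of collagen prolyl 4-hydroxylase and of the microsomal triglyceride transfer protein, had 879, 1004, 974 and 1071 CPM in intermittent hypoxia, 1381, 1452, 969 and 1259 CPM in overlap hypoxia and 1643, 1625, 2101 and 1594 CPM in sustained hypoxia, against 1772, 1703, 1716 and 1738 CPM in room air. Its 4 intermittent hypoxia values reached at most 1071 CPM and its room air values at least 1703 CPM, a change of -0.82 (SE 0.14, adjusted p = 0.00021). Pdia3 (ERp57), which acts on glycoproteins held by calnexin and calreticulin, had 229, 248.8, 215 and 209 CPM in intermittent hypoxia, 329.6, 299, 202 and 304.2 CPM in overlap hypoxia and 326.1, 319.7, 469 and 383 CPM in sustained hypoxia, against 492, 402, 413 and 421 CPM in room air. The intermittent hypoxia level was 0.522 times that of room air, a log2 change of -0.94 (SE 0.16, adjusted p = 0.000142), and every overlap hypoxia library also lay below every room air library. Pdia6 (P5) had 148, 120.5, 107 and 109.7 CPM in intermittent hypoxia, 185, 165, 123 and 177 CPM in overlap hypoxia and 203, 202, 233 and 265 CPM in sustained hypoxia, against 270.3, 214, 209 and 238 CPM in room air. It showed the same order of groups, with no overlap between intermittent hypoxia and room air and a change of -0.94 (SE 0.15, adjusted p = 0.000103). Pdia4 (ERp72) averaged 74.1 ± 10.7 CPM in intermittent hypoxia and 95.6 ± 20.7 CPM in room air (SD, n = 4 each), a change of -0.37 that was not called (adjusted p = 0.0876, 95% interval -0.69 to -0.04), and was called without room air replicate 4 (adjusted p = 0.0457).

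The lectin chaperones calnexin and calreticulin, which hold newly made glycoproteins until they are folded, were lower as well. Canx had 127, 83.7, 90.97 and 132 CPM in intermittent hypoxia, 176, 105, 133 and 169 CPM in overlap hypoxia and 132, 124, 181 and 167 CPM in sustained hypoxia, against 215, 217, 221 and 206 CPM in room air. Room air libraries lay close together, at 206 to 221 CPM, and all libraries of the other 3 groups lay below them, the change in intermittent hypoxia being -0.99 (SE 0.18, adjusted p = 0.000286). Calr had 462, 542, 439 and 364 CPM in intermittent hypoxia, 570.1, 555, 354 and 461 CPM in overlap hypoxia and 523, 539, 692 and 654 CPM in sustained hypoxia, against 812, 638, 625 and 573 CPM in room air. Intermittent hypoxia and room air did not overlap there, with a change of -0.55 (SE 0.17, adjusted p = 0.0138), while overlap hypoxia replicate 3, at 354 CPM, was the lowest library of all. Ppib, which encodes cyclophilin B, a prolyl isomerase of the ER, had 242, 228, 212 and 225 CPM in intermittent hypoxia, 298, 354, 284 and 313.2 CPM in overlap hypoxia and 381, 359, 452 and 431 CPM in sustained hypoxia, against 372, 338.96, 347 and 340.7 CPM in room air. Its intermittent hypoxia libraries stood below every library of the other 3 groups, and the change over room air was -0.63 (SE 0.12, adjusted p = 0.000407). A share of 30.8% of Ppib's 50-base words also occurs in transcripts of Snx22, and 25% of its exonic length lies opposite that gene, so its counts are uncertain where reads could go to either.

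Creld2 and Sdf2l1 had the largest relative falls of the 14 chaperones called. Creld2, an ER protein induced by ER stress, had 6.91, 6.78, 8.17 and 5.93 CPM in intermittent hypoxia, 15.5, 9.73, 19.7 and 18.5 CPM in overlap hypoxia and 8.46, 10.1, 15.9 and 30.6 CPM in sustained hypoxia, against 33.3, 13.8, 12.8 and 17.6 CPM in room air. All intermittent hypoxia values were at or under 8.17 CPM and all room air values at or above 12.8 CPM, a change of -1.49 (SE 0.40, adjusted p = 0.0106). Sdf2l1, which works in a complex with the product of Dnajb11, had 16.5, 14.2, 8.21 and 8.48 CPM in intermittent hypoxia, 25.7, 15.5, 11.4 and 23.2 CPM in overlap hypoxia and 16.7, 17.3, 36.6 and 39.6 CPM in sustained hypoxia, against 46.2, 26.3, 26.01 and 31.5 CPM in room air. It changed by -1.45 (SE 0.36, adjusted p = 0.00576), with no overlap between intermittent hypoxia and room air. Hspa13, a smaller relative of BiP, had 12.3, 6.19, 7.60 and 8.84 CPM in intermittent hypoxia, 16.3, 7.42, 15.03 and 14.3 CPM in overlap hypoxia and 11.7, 9.35, 14.3 and 12.8 CPM in sustained hypoxia, against 20.1, 17.4, 20.8 and 13.5 CPM in room air. Its change was -1.04 (SE 0.23, adjusted p = 0.00185), and the highest intermittent hypoxia value, 12.3 CPM, lay below the lowest in room air, 13.5 CPM.

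The 3 J-domain partners of BiP on the list were also called lower. Dnajb9 (ERdj4) had 12.3, 10.8, 14.2 and 14.6 CPM in intermittent hypoxia, 28.5, 14.3, 23.9 and 22.7 CPM in overlap hypoxia and 23.2, 13.3, 29.7 and 31.9 CPM in sustained hypoxia, against 16.7, 23.8, 30.2 and 21.3 CPM in room air, a change of -0.82 (SE 0.25, adjusted p = 0.0155) in intermittent hypoxia over room air. It was not called without room air replicate 3 or intermittent hypoxia replicate 2 (adjusted p 0.0569 and 0.0544). Dnajb11 (ERdj3) had 46.4, 40.9, 35.4 and 29.8 CPM in intermittent hypoxia, 43.2, 38.7, 47.9 and 51.3 CPM in overlap hypoxia and 41.2, 44.5, 57.5 and 65.8 CPM in sustained hypoxia, against 73.4, 52.7, 45.9 and 55.3 CPM in room air. Intermittent hypoxia replicate 1 overlapped room air replicate 3 there, the change was -0.58 (SE 0.17, adjusted p = 0.0132), and it was not called without room air replicate 1 (adjusted p = 0.0566). Dnajc3 (p58IPK), which also restrains PERK, had 88.2, 72.5, 80.3 and 79.2 CPM in intermittent hypoxia, 108, 72.4, 88.7 and 100.5 CPM in overlap hypoxia and 81.5, 77.8, 100.1 and 98.1 CPM in sustained hypoxia, against 121, 93.9, 107 and 106 CPM in room air. Its intermittent hypoxia and room air libraries did not overlap, and the change was -0.42 (SE 0.14, adjusted p = 0.0214). That change was not called without room air replicate 1 or intermittent hypoxia replicate 2 (adjusted p 0.0613 and 0.0719).

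Manf, which encodes a secreted ER protein that binds BiP, had 39.8, 33.7, 41.4 and 21.7 CPM in intermittent hypoxia, 61.8, 39.1, 62.6 and 74.02 CPM in overlap hypoxia and 48.1, 40.3, 69.9 and 92.4 CPM in sustained hypoxia, against 103, 51.1, 45.96 and 43.4 CPM in room air. Its change in intermittent hypoxia over room air, -0.84, missed the threshold (adjusted p = 0.058), although the libraries of intermittent hypoxia and room air did not overlap. It was called without room air replicate 4, sustained hypoxia replicate 2 or 4, or overlap hypoxia replicate 2 (adjusted p 0.0421 to 0.0492). A share of 8.85% of Manf's exonic length lies opposite 4930524O07Rik and Dcaf1. Hyou1, the nucleotide exchange factor GRP170 of BiP, averaged 27.6 ± 8.37 CPM in intermittent hypoxia and 45.6 ± 19.8 CPM in room air (SD, n = 4 each). The change of -0.73 was not called (adjusted p = 0.0728, 95% interval -1.32 to -0.13), and it was called without room air replicate 4 (adjusted p = 0.0495). Over the 16 fits that each left out 1 library, between 11 and 17 chaperones were called lower in intermittent hypoxia than in room air, 11 without room air replicate 1 and 17 without room air replicate 4, and the log2 change stayed below 0 for all 17 in each fit.

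**Figure D2:**
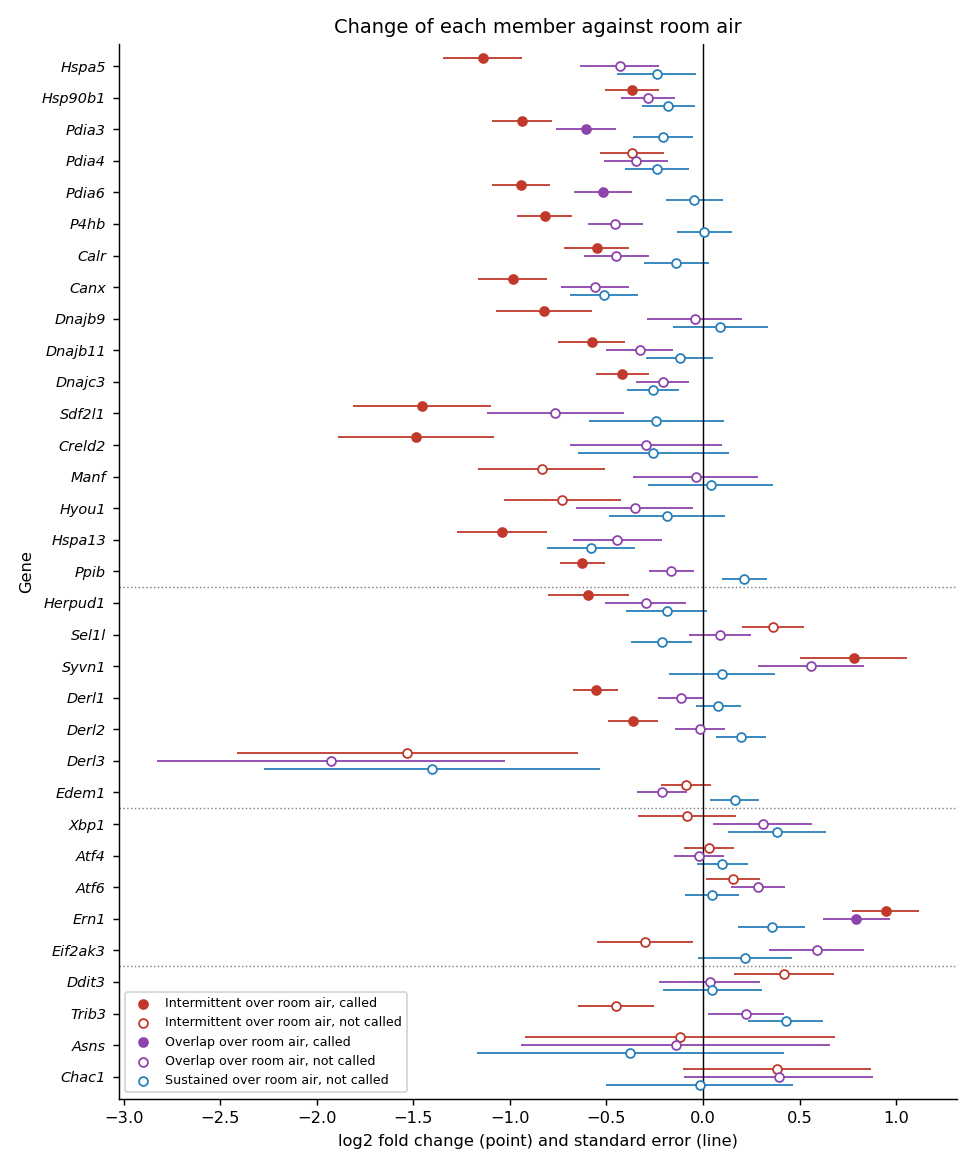
Log2 change (point) and standard error (line) of each member in intermittent, overlap and sustained hypoxia over room air, filled where called. The 17 chaperones at the top lie left of 0 in intermittent hypoxia and 14 of them are filled, while Syvn1 and Ern1 lie to the right.

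The intermittent hypoxia libraries that were low in chaperones were also those with the most ribosomal RNA, and the 4 of them lay above all 4 room air libraries in that share. With the share as a covariate, 2 of 33 members were called in intermittent hypoxia over room air (Hspa5 and Manf, both lower), where 0.529% of all genes were, and the 17 chaperones kept a log2 change below 0 with a median of -1.0. Within groups, the chaperone level is given as the median log2 ratio to the room air mean. In intermittent hypoxia, replicate 4 had the lowest share (18.5%) and the lowest median (-0.92), and replicate 3 the highest share (34.8%) and a median of -0.72. In overlap hypoxia, replicate 2 had the lowest share (2.54%) and the lowest median (-0.56), and replicate 4 the highest share (16.8%) and a median of -0.31. In room air, replicate 1 had the highest share (10.2%) and the highest median (0.22), and the other 3 libraries had shares of 1.57% to 5.69% and medians of -0.11 to -0.08. In sustained hypoxia, replicates 1 and 2 had the lower shares (1.55% and 1.57%) and the lower medians (-0.405 and -0.438). Replicates 3 and 4 of that group had shares of 2.76% and 2.77% and medians of 0.016 and 0.102. The exposure and the share cannot be told apart in intermittent hypoxia.

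**Figure D3:**
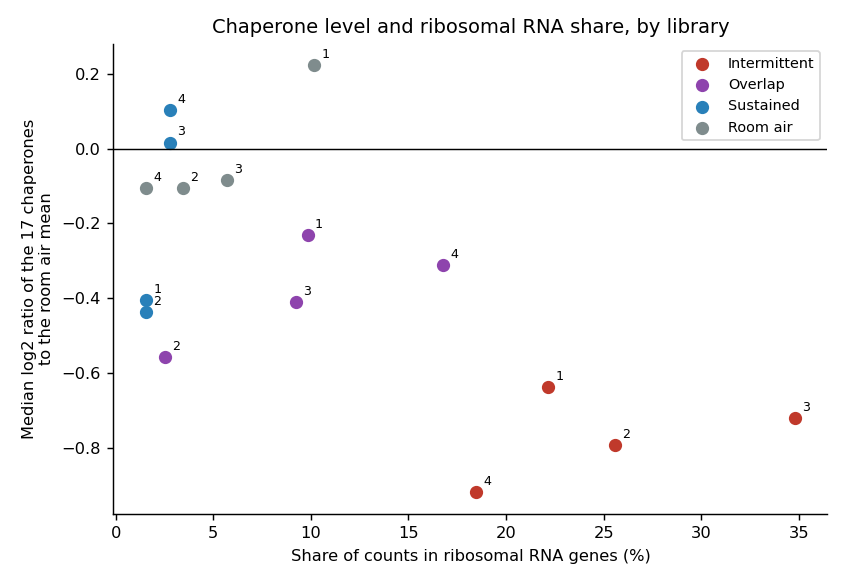
Share of counts in ribosomal RNA genes (x axis, percent) and median log2 ratio of the 17 chaperones to their room air mean (y axis) in each of 16 libraries, coloured by group and numbered by replicate. Intermittent hypoxia libraries lie at the lower right, at 18.5% to 34.8% and -0.92 to -0.64.

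Several of these genes carry the ER stress response element (ERSE), the sequence through which ATF6 and the factor NF-Y are known to raise chaperone transcription. RefSeq promoter windows of GRCm38.p6, 250 bases before to 50 after the gene start, were found for 28 of the 33 members. The letters CCAAT, any 9 bases and then CCACG, searched on both strands, occurred in 9 of the 28 (32.1%) and in 39 of all 32851 windows (0.119%). Members were counted per gene and all windows singly. As the members were listed by name for their function, the higher share is not independent of the choice of genes. The 9 are 7 chaperones, all lower in intermittent hypoxia, Syvn1, which was higher, and Derl3, which was not called. They are shown because the same letters stand before genes called in opposite directions. The only higher call, Syvn1, was lost in 6 of the 16 fits that left out 1 library. Its sign turned (-0.23) with the ribosomal RNA share as a covariate. Capitals mark the CCAAT and CCACG parts, or their reverse complements CGTGG and ATTGG where the element lies on the opposite strand.
Hspa5, chr2:34772015-34772053, plus strand: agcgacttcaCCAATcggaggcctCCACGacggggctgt
Pdia6, chr12:17266481-17266519, plus strand: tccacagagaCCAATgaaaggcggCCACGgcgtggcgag
Calr, chr8:84847065-84847103, minus strand: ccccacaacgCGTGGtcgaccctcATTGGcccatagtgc
Canx, chr11:50325790-50325828, minus strand: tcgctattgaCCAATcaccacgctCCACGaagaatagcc
Dnajc3, chr14:118937817-118937855, plus strand: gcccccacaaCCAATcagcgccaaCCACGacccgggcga
Creld2, chr15:88819510-88819548, plus strand: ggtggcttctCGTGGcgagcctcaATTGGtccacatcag
Syvn1, chr19:6046522-6046560, plus strand: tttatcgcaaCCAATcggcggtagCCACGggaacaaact
Derl3, chr10:75893232-75893270, plus strand: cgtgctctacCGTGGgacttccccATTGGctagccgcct
Hsp90b1 has the letters at 2 places, 105 bases apart and on opposite strands, shown as 1 run.
Hsp90b1, chr10:86705523-86705666, minus strand: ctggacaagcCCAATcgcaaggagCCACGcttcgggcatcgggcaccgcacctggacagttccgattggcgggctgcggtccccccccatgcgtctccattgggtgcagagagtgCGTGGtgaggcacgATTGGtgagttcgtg
The element began between 212 and 44 bases before the gene start in these promoters. That start is the RefSeq one and can differ from the start in the GENCODE coordinates. The Hspa5 stretch thus lies inside the span given for that gene above. Outside the list, 28 genes hold the letters and 9 of those were tested: in intermittent hypoxia over room air Pan2 was called higher (1.09, adjusted p = 0.000179), Alg12 lower (-0.71, adjusted p = 0.0439), and 7 were not called. The letters TGACGTGG of the unfolded protein response element, which share CCACG with the ERSE when read on the opposite strand, were in 0 of the 28 members' windows and in 0.676% of all windows. The letters TGATGNAAN, bound by ATF4 with a C/EBP partner, were in 4 of 28 (14.3%; Herpud1, Trib3, Asns and Chac1) and in 3.95% of all windows.

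**Figure D4:**
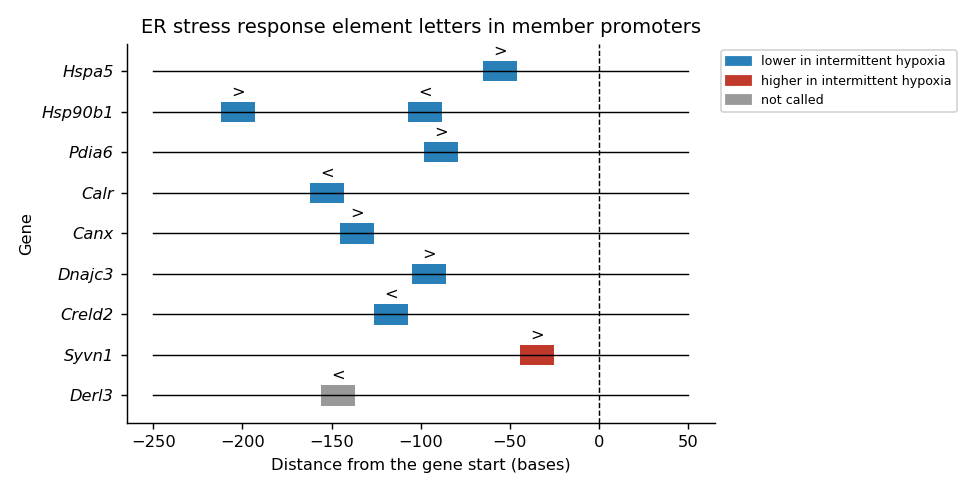
Position of the ERSE letters (boxes) in the promoter windows of the 9 members that hold them, as distance in bases from the gene start (dashed line), with > for the gene's strand and < for the opposite strand. Boxes are blue for the 7 chaperones called lower in intermittent hypoxia than in room air, red for Syvn1, which was called higher, and grey for Derl3.

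Of the 7 degradation genes, 3 were called lower in intermittent hypoxia than in room air (Herpud1, Derl1 and Derl2), 1 higher (Syvn1), and Sel1l, Derl3 and Edem1 were not called, beside 18.3% of all genes lower and 18.9% higher. Under upper-quartile scaling 1 was lower and 2 higher, and with offsets for gene length 2 were lower and 0 higher. Syvn1 encodes HRD1, the ubiquitin ligase that marks misfolded ER proteins, and had 23.9, 30.1, 33.2 and 17.04 CPM in intermittent hypoxia, 30.03, 16.1, 20.3 and 22.6 CPM in overlap hypoxia and 11.1, 13.04, 14.9 and 26.1 CPM in sustained hypoxia, against 19.6, 16.04, 10.7 and 14.3 CPM in room air. Intermittent hypoxia replicate 4 overlapped room air replicate 1, and the change of 0.78 (SE 0.28, adjusted p = 0.0353) was not called without room air replicate 2, 3 or 4 or intermittent hypoxia replicate 1, 2 or 3 (adjusted p 0.0514 to 0.103); with the ribosomal RNA share as a covariate its sign turned (-0.23). Sel1l, the partner that stabilises HRD1, had 30.7, 40.3, 51.4 and 34.3 CPM in intermittent hypoxia, 37.2, 26.5, 35.6 and 30.2 CPM in overlap hypoxia and 23.6, 24.97, 30.5 and 25.9 CPM in sustained hypoxia, against 36.7, 30.7, 28.7 and 25.7 CPM in room air. It was not called over room air (0.36, adjusted p = 0.0812), but was without room air replicate 1 or intermittent hypoxia replicate 1 (adjusted p 0.0412 and 0.0379).

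Derl1 and Derl2 belong to the derlins, membrane proteins through which misfolded proteins leave the ER, and both were called lower. Derl1 had 85.5, 70.4, 82.9 and 89.2 CPM in intermittent hypoxia, 107, 105, 109 and 124 CPM in overlap hypoxia and 129, 109, 139.7 and 131 CPM in sustained hypoxia, against 109.9, 124, 121 and 128 CPM in room air. Every intermittent hypoxia library lay below every library of the other 3 groups, and the change over room air was -0.56 (SE 0.12, adjusted p = 0.00109). Derl2 had 60.6, 67.4, 81.1 and 75.8 CPM in intermittent hypoxia, 83.1, 108, 83.3 and 88.2 CPM in overlap hypoxia and 98.4, 95.98, 126 and 99.8 CPM in sustained hypoxia, against 95.1, 93.3, 91.1 and 86.96 CPM in room air. Its change of -0.36 (SE 0.13, adjusted p = 0.0323) was not called without room air replicate 1, 2 or 3 or intermittent hypoxia replicate 1 or 2 (adjusted p 0.0541 to 0.0845).

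Herpud1, a membrane protein of the degradation complex that is also induced by ATF4, had 202, 174, 249.97 and 293 CPM in intermittent hypoxia, 302.03, 264, 321.3 and 242 CPM in overlap hypoxia and 338.05, 318.9, 316.4 and 246 CPM in sustained hypoxia, against 197, 323.7, 469 and 399 CPM in room air. Room air ranged widely, and its replicate 1, at 197 CPM, lay within the intermittent hypoxia range. The change of -0.59 (SE 0.21, adjusted p = 0.0322) was not called without room air replicate 3 or 4 or intermittent hypoxia replicate 1 or 2 (adjusted p 0.0751 to 0.138). Derl3, the third derlin, was near the floor, at 0 in intermittent hypoxia replicate 3 and overlap hypoxia replicate 3 and at most 3.41 CPM (room air replicate 1). It was not called (adjusted p = 0.189), but without intermittent hypoxia replicate 1, at 2.07 CPM, its change was -3.43 with an adjusted p of 0.00338. Edem1, which routes misfolded glycoproteins to degradation, averaged 49.8 ± 8.35 CPM in intermittent hypoxia and 52.9 ± 3.72 CPM in room air (SD, n = 4 each; log2 interval -0.34 to 0.17).

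Of the 5 sensors and factors, Ern1 alone was called in intermittent hypoxia over room air, where 37.1% of all genes were. Ern1 encodes IRE1 and had 9.35, 8.24, 10.5 and 6.75 CPM in intermittent hypoxia, 9.52, 6.20, 6.64 and 8.77 CPM in overlap hypoxia and 5.76, 6.35, 4.90 and 6.08 CPM in sustained hypoxia, against 4.53, 5.01, 4.12 and 4.39 CPM in room air. All intermittent and overlap hypoxia libraries lay above all room air libraries, and the change in intermittent hypoxia was 0.95 (SE 0.17, adjusted p = 0.000363), called in all 16 fits that left out 1 library. It was 0.66 and still called with offsets for gene length, and 0.38 and not called with the ribosomal RNA share as a covariate. Xbp1, the transcript that IRE1 splices, had 99.7, 62.3, 69.8 and 51.5 CPM in intermittent hypoxia, 102, 64.3, 77.8 and 128 CPM in overlap hypoxia and 86.1, 87.8, 78.7 and 139 CPM in sustained hypoxia, against 90.3, 91.7, 50.3 and 67.8 CPM in room air. All groups overlapped, and the interval of its change in intermittent hypoxia was -0.58 to 0.42 on the log2 scale. Atf4 had 54.9, 54.1, 45.4 and 53.7 CPM in intermittent hypoxia, 45.03, 55.5, 45.9 and 54.5 CPM in overlap hypoxia and 48.1, 50.9, 62.8 and 56.6 CPM in sustained hypoxia, against 53.3, 51.9, 40.7 and 57.9 CPM in room air. The groups overlapped throughout, with an interval of -0.23 to 0.29.

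**Figure D5:**
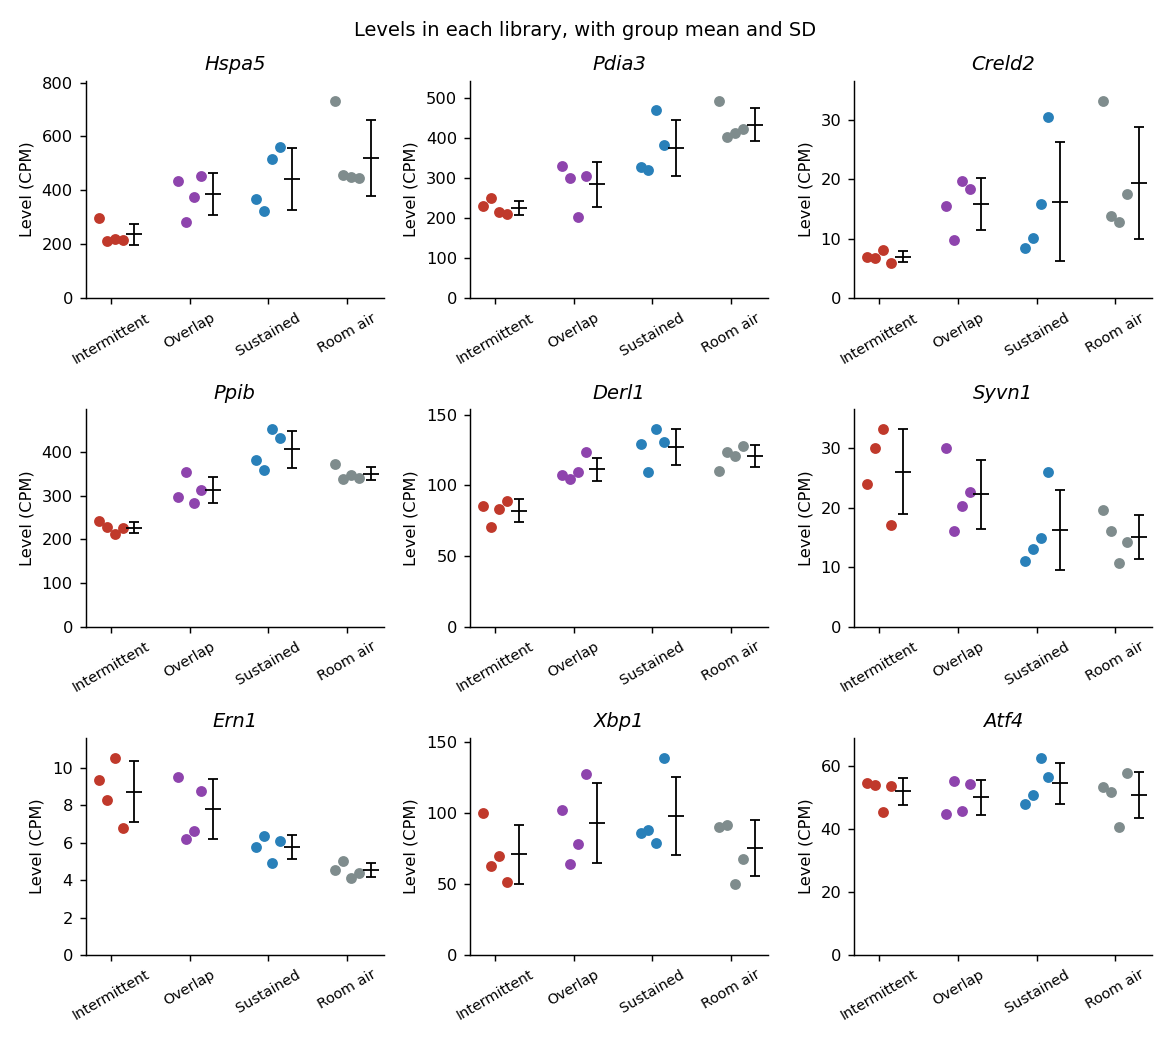
Level (CPM) of 9 members in each library, by group, with the group mean and SD beside the points. Intermittent hypoxia libraries are the lowest for Hspa5, Ppib and Derl1 apart from overlap hypoxia replicate 2 for Hspa5, room air libraries lie below all intermittent and overlap hypoxia libraries for Ern1, and the groups overlap for Xbp1 and Atf4.

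Atf6 averaged 21.3 ± 3.82 CPM in intermittent hypoxia and 19.04 ± 1.68 CPM in room air (SD, n = 4 each), with a log2 interval of -0.12 to 0.43. Eif2ak3, which encodes PERK, had 2.95, 2.52, 1.75 and 3.31 CPM in intermittent hypoxia, 6.39, 3.36, 6.20 and 3.89 CPM in overlap hypoxia and 4.17, 3.10, 2.88 and 5.08 CPM in sustained hypoxia, against 3.71, 3.20, 3.27 and 2.90 CPM in room air. Its change in intermittent hypoxia over room air was not called (-0.30, adjusted p = 0.364), and overlap hypoxia replicates 1 and 3 were the highest of all 16 libraries. A share of 8.05% of its exonic length lies opposite Gm43292.

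None of the 4 ATF4 targets was called in intermittent, overlap or sustained hypoxia over room air by edgeR, DESeq2 or limma-voom. In edgeR, 1 in intermittent, 0 in overlap and 1 in sustained hypoxia had an unadjusted p under 0.05. Over all genes, edgeR called 37.1%, 6.29% and 0.0481% in these comparisons. In intermittent hypoxia DESeq2 called 5802 and limma-voom 5370 of 14553 genes. DESeq2 called 9.93% in overlap and 1.21% in sustained hypoxia, and limma-voom 9.22% and 1.69%. Ddit3, which encodes CHOP, the factor linked to cell death under lasting ER stress, had 1.87, 5.19, 4.11 and 4.69 CPM in intermittent hypoxia, 3.41, 3.55, 2.80 and 2.32 CPM in overlap hypoxia and 2.81, 3.09, 2.98 and 3.38 CPM in sustained hypoxia, against 2.33, 2.81, 2.72 and 4.01 CPM in room air. The change in intermittent hypoxia was 0.42 (adjusted p = 0.215), and without intermittent hypoxia replicate 1, the lowest library, it was called at 0.64 (adjusted p = 0.0247). A share of 4.73% of Ddit3's exonic length lies opposite Gm4189 and Mars. Mars averaged 35.6 CPM in intermittent hypoxia and 51.8 CPM in room air. Trib3, a pseudokinase induced by ATF4 and CHOP, had 7.57, 8.40, 5.55 and 11.3 CPM in intermittent hypoxia, 13.7, 11.9, 16.5 and 10.9 CPM in overlap hypoxia and 16.4, 17.9, 14.01 and 12.4 CPM in sustained hypoxia, against 10.04, 9.40, 14.4 and 11.3 CPM in room air. It was not called over room air (-0.45, adjusted p = 0.0789), but was without intermittent hypoxia replicate 4 (-0.66, adjusted p = 0.0145). Asns, which makes asparagine, varied widely within groups, at 0.569 to 7.25 CPM in intermittent hypoxia and 1.55 to 7.70 CPM in room air. Chac1, which degrades glutathione, ranged between 1.38 and 5.28 CPM in intermittent hypoxia and between 1.79 and 2.52 CPM in room air.

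In overlap hypoxia few chaperones passed the threshold, although all lay on the low side. Of the 17, 2 were called lower than in room air (Pdia3 and Pdia6) and 0 higher, where 2.89% of all genes were lower and 3.41% higher, 6.29% in either direction. The log2 change was below 0 for all 17, with a median of -0.35 beside 0.03 over all genes, and 6 of the 17 had all overlap hypoxia libraries below all room air libraries, which held for 7.14% of all genes. Among all 33 members, the third call was Ern1, which was higher (log2 0.79, SE 0.18, adjusted p = 0.0137). Pdia3 changed by -0.61 (SE 0.15, adjusted p = 0.0262) and Pdia6 by -0.52 (SE 0.15, adjusted p = 0.0445). P4hb and Canx came close, at -0.45 and -0.56 (adjusted p 0.0594 and 0.0612), and both were called with DESeq2 and with limma-voom, which called 9.93% and 9.22% of all genes. Dnajb9 and Manf lay near the room air level, at -0.04 and -0.04, with intervals of -0.53 to 0.44 and -0.67 to 0.60.

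The calls in overlap hypoxia rested on few libraries. Overlap hypoxia replicate 3, the library with the fewest counts, was the lowest of its group for Pdia3, Pdia6, P4hb and Calr, and without it neither Pdia3 nor Pdia6 was called (adjusted p 0.0901 and 0.152). Pdia3 was also lost without room air replicate 1, 3 or 4 (adjusted p 0.0525 to 0.0669). Pdia6 was called in 6 of the 16 fits that left out 1 library; it was lost without any 1 room air library, without overlap hypoxia replicate 1 or 2, and without sustained hypoxia replicate 1, 2 or 3 (adjusted p 0.0515 to 0.114). Ern1 was lost without room air replicate 3 or overlap hypoxia replicate 1 (adjusted p 0.0567 and 0.0604).

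Overlap hypoxia was compared directly with intermittent hypoxia, which asks whether the combination differed from intermittent exposure alone. All 17 chaperones had a log2 change above 0, with a median of 0.42 beside -0.0040 over all genes, and 2 were called higher (Hspa5 and Ppib); across the 33 members 5 were called higher and 0 lower, where 3.20% of all genes were higher and 2.95% lower, 6.15% in either direction. Hspa5 changed by 0.71 (SE 0.20, adjusted p = 0.0463). Ppib changed by 0.46 (SE 0.12, adjusted p = 0.0283), and Derl1 by 0.44 (SE 0.12, adjusted p = 0.0338). The other calls were Eif2ak3 (log2 0.89, SE 0.25, adjusted p = 0.0424) and Trib3 (log2 0.68, SE 0.20, adjusted p = 0.0493). Creld2 had the largest ratio of the chaperones, 1.19, without passing (adjusted p = 0.0914). Ern1 did not pass here (-0.15, interval -0.49 to 0.19).

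These 5 calls lay close to the threshold. None of them was made without intermittent hypoxia replicate 2 or 3 or overlap hypoxia replicate 4 (adjusted p for the 5 between 0.0769 and 0.15), but those fits called few genes of any kind, 171 of 14937, 217 of 14982 and 16 of 15016. The same holds for a fit of only the 8 libraries of these groups (0 of 13686 genes) and for the ribosomal RNA share as a covariate (0.0275% of all genes), which called none of the 5. DESeq2 called all 5 and also Dnajb9 and Creld2 (10.7% of all genes), offsets for gene length left 6 members called (6.14% of all genes), and limma-voom called 2 (3.06% of all genes). Hspa5 was also lost without intermittent hypoxia replicate 4, overlap hypoxia replicate 1 or 3, room air replicate 2 or 3, or sustained hypoxia replicate 1 or 3 (adjusted p 0.0528 to 0.0825). Ppib was also lost without overlap hypoxia replicate 2 (adjusted p = 0.0622). Eif2ak3 was lost in 9 of 16 fits (also without intermittent hypoxia replicate 1, overlap hypoxia replicate 1 or 3, room air replicate 2 or 3 and sustained hypoxia replicate 1), and Trib3 in all but those without room air replicate 3 or intermittent hypoxia replicate 4.

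No member passed the threshold in sustained hypoxia over room air. Over all genes 0.0481% were called, and of the 33 members 0 were called by edgeR, 0 by DESeq2 (1.21% of all genes) and 0 by limma-voom (1.69%), with 3 at an unadjusted p under 0.05. The chaperone median was -0.19, with 13 of 17 below 0. Canx had the lowest p of the members, with a change of -0.51 (adjusted p = 0.265, interval -0.86 to -0.17), then Hspa13 at -0.58 (adjusted p = 0.327). P4hb was at 0.01, with an interval of -0.27 to 0.28. The group was split: replicates 1 and 2 lay below replicates 3 and 4 in 16 of the 17 chaperones, with median log2 ratios to the room air mean of -0.41 and -0.44 against 0.02 and 0.10, a pattern seen in these values and not tested. Hspa5 shows it, with 367 and 321 CPM in replicates 1 and 2 and 516 and 559 CPM in replicates 3 and 4. How many of all genes tested showed this split was not counted. The same split was seen in the ribosomal RNA share, at 1.55% and 1.57% in replicates 1 and 2 against 2.76% and 2.77%. Replicates 1 and 2 also had more counts (56008162 and 64789635, against 38765132 and 43909052). Their TMM scaling factors, by which the levels are divided, were higher as well (1.157 and 1.219, against 0.969 and 0.977). The part of these library differences in the split was not tested.

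The chaperones were also lower in intermittent than in sustained hypoxia, in a comparison that shares the intermittent hypoxia libraries with that against room air. Of the 17 chaperones, 11 were called lower and 0 higher, with a median log2 change of -0.73; of the 33 members 14 were lower and 2 higher, where 18.9% of all genes were lower and 19.5% higher, 38.4% in either direction. Ppib had the lowest p, with a change of -0.84 (SE 0.12, adjusted p = 4.61e-05), then Pdia6 (log2 -0.90, SE 0.15, adjusted p = 0.000177) and P4hb (log2 -0.83, SE 0.14, adjusted p = 0.000214). Hspa5 changed by -0.90 (SE 0.20, adjusted p = 0.00197). Manf, not called over room air, was called here (log2 -0.88, SE 0.33, adjusted p = 0.047), though in 7 of 16 fits that left out 1 library. Among the other members, Trib3 was lower (log2 -0.88, SE 0.20, adjusted p = 0.00182) and did not overlap, with 7.57, 8.40, 5.55 and 11.3 CPM in intermittent hypoxia and 16.4, 17.9, 14.01 and 12.4 CPM in sustained hypoxia. Sel1l and Ern1 were higher, at 0.58 (SE 0.16, adjusted p = 0.00788) and 0.59 (SE 0.17, adjusted p = 0.0112). Neither was called with offsets for gene length. With the ribosomal RNA share as a covariate both changed sign (-0.24 and -0.056), and 0 members were called, where 0.00687% of all genes were.

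The 6 chaperones not called between intermittent and sustained hypoxia were Hsp90b1, Pdia4, Calr, Dnajc3, Hyou1 and Hspa13. Of the 11 called, Canx was lost without sustained hypoxia replicate 3 or 4 or intermittent hypoxia replicate 2 or 3 (adjusted p 0.0992 to 0.138). Dnajb11 was lost without sustained hypoxia replicate 3 or 4 or intermittent hypoxia replicate 2, 3 or 4 (adjusted p 0.0622 to 0.163). Creld2 was lost without sustained hypoxia replicate 4 or intermittent hypoxia replicate 1, 2 or 4 (adjusted p 0.0531 to 0.0869). Manf was lost without room air replicate 2, sustained hypoxia replicate 3 or 4, any 1 intermittent hypoxia library, or overlap hypoxia replicate 1 or 3 (adjusted p 0.0522 to 0.143).

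Overlap and sustained hypoxia did not differ past the threshold in any member, where 0.165% of all genes were called. DESeq2 called 3 members and limma-voom 5 (6.16% and 8.31% of all genes), and 6 had an unadjusted p under 0.05 in edgeR. P4hb had the lowest adjusted p (-0.46, adjusted p = 0.0836). The departure of overlap hypoxia from additivity (its log2 change less those of intermittent and of sustained hypoxia) was above 0 for all 17 chaperones, with a median of 0.54, and none of the 33 members was called, where 0.454% of all genes were; 8 had an unadjusted p under 0.05. DESeq2 called 3 and limma-voom 2 of the members (3.66% and 1.90% of all genes). Canx (log2 0.94, SE 0.25, adjusted p = 0.0804) and Hspa13 (log2 1.18, SE 0.33, adjusted p = 0.0877) came closest. The labels do not say whether the doses of hypoxia match between the single and combined exposures, and the departure is a description of these 4 groups.

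Levels were also taken per kb of exonic length, with the exons of all transcripts of a gene joined. That length can exceed the length of a single transcript, so the ranks below depend on it. On this measure P4hb was the most abundant member in all 4 groups. It stood at 343.2 CPM per kb in intermittent hypoxia, 442 in overlap hypoxia and 608 in sustained hypoxia, against 605 in room air. Calr followed, at 157 CPM per kb in intermittent hypoxia and 229.9 in room air. Hspa5 stood at 55.8 CPM per kb in intermittent hypoxia and 123 in room air, and Pdia3 at 71.8 CPM per kb in intermittent hypoxia and 138 in room air. Hsp90b1, at 93.5 CPM per kb in intermittent hypoxia and 121 in room air, thus stood above Hspa5 and Pdia3 in intermittent hypoxia and below both in room air, although in room air Hsp90b1 and Hspa5 differed by less than the spread between libraries. The sensors were far lower: Ern1 had 1.07 CPM per kb in intermittent hypoxia and 0.552 in room air, and Eif2ak3 0.437 CPM per kb in intermittent hypoxia and 0.543 in room air.

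Other genes of the same pathway, 106 tested of 111 listed, moved in both directions in intermittent hypoxia: 11 were called higher and 35 lower than in room air, beside 18.9% higher and 18.3% lower over all genes, with a median of -0.20 beside 0.03 over all genes. Under upper-quartile scaling, 19 were higher and 31 lower; with the ribosomal RNA share as a covariate none was called. Of 22 genes of protein entry into the ER, 13 were lower and 0 higher (median -0.55). Sec61g, a subunit of the translocation channel, averaged 3.94 ± 0.891 CPM in intermittent hypoxia and 10.3 ± 1.101 CPM in room air (SD, n = 4 each), a change of -1.38 (SE 0.21, adjusted p = 6.82e-05). Sec11c, of the signal peptidase, changed by -1.17 (SE 0.15, adjusted p = 1.65e-05), and Srpr, the receptor of the signal recognition particle, by -0.98 (SE 0.14, adjusted p = 4.22e-05). Overlap hypoxia was higher than intermittent hypoxia in 7 of these 22 genes of protein entry, Srpr among them (log2 0.64, SE 0.14, adjusted p = 0.0191), and lower in 0. Over all genes 3.20% were higher and 2.95% lower in that comparison. In overlap hypoxia over room air, Srp68, a protein of the signal recognition particle, was higher (log2 0.70, SE 0.15, adjusted p = 0.0111) and Sec11c lower (log2 -0.61, SE 0.15, adjusted p = 0.021).

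Of 21 other folding genes, 8 were lower in intermittent hypoxia than in room air and 1 higher (median -0.36, and 8 and 3 under upper-quartile scaling). Over all genes 18.3% were lower and 18.9% higher. Txndc12, a thioredoxin-like ER protein, was lower (log2 -0.94, SE 0.16, adjusted p = 0.000201), as it was in overlap hypoxia (log2 -0.67, SE 0.16, adjusted p = 0.0209). Fkbp11, a prolyl isomerase, changed by -1.16 (SE 0.27, adjusted p = 0.0034), and Erp29, a disulfide isomerase relative without the active cysteine pair, by -0.65 (SE 0.13, adjusted p = 0.000586). However, 24.3% of the 50-base words of Erp29 also occur in other genes, and 26.4% of its exonic length lies opposite exons on the other strand. Txndc11, another thioredoxin-domain protein of the ER, was higher in overlap hypoxia (log2 0.72, SE 0.21, adjusted p = 0.0434) and in intermittent hypoxia (log2 0.68, SE 0.21, adjusted p = 0.0132). Ero1l, the oxidase that recharges the disulfide isomerases and a known hypoxia-induced gene, was not called in intermittent hypoxia (0.42, adjusted p = 0.0853).

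Of 18 other degradation genes, 5 were lower and 1 higher (median -0.11; 5 and 3 under upper-quartile scaling), a share called near the 37.1% of all genes. Erlec1, a lectin of the HRD1 complex, was lower in intermittent hypoxia (log2 -1.09, SE 0.16, adjusted p = 5.49e-05) and in overlap hypoxia (log2 -0.70, SE 0.16, adjusted p = 0.0172). Ube2g2, a ubiquitin-conjugating enzyme, changed by -1.09 (SE 0.22, adjusted p = 0.000729), and Selenos, a selenoprotein bound to the derlins, by -0.70 (SE 0.15, adjusted p = 0.000977).

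Of 16 other sensor and factor genes tested, 4 were higher and 4 lower in intermittent hypoxia (5 and 3 under upper-quartile scaling). Beside them, 18.9% of all genes were higher and 18.3% lower. Creb3l3, the liver's own ER-bound factor of the ATF6 kind, averaged 131 ± 5.77 CPM in intermittent hypoxia, 141 ± 10.98 CPM in overlap hypoxia and 173 ± 19.97 CPM in sustained hypoxia, against 181 ± 27.03 CPM in room air (SD, n = 4 each). It was lower in intermittent hypoxia (log2 -0.47, SE 0.13, adjusted p = 0.0064). Eif2s1, which encodes the translation factor subunit that PERK phosphorylates, was lower (log2 -1.14, SE 0.17, adjusted p = 4.63e-05), as was Creb3, which encodes another membrane-bound factor (log2 -0.76, SE 0.11, adjusted p = 5.64e-05); 20.8% of its exonic length lies opposite another gene. Nfyc, a subunit of the NF-Y factor that binds CCAAT, was higher (log2 1.03, SE 0.20, adjusted p = 0.000527), with 22.2% of its 50-base words in other genes.

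Of 29 other ATF4 targets tested, 5 were higher and 5 lower in intermittent hypoxia (median -0.07; 7 and 3 under upper-quartile scaling), a share near that of all genes (18.9% higher and 18.3% lower). Vldlr, a lipoprotein receptor, averaged 4.66 ± 0.905 CPM in intermittent hypoxia and 0.803 ± 0.474 CPM in room air (SD, n = 4 each), a change of 2.53 (SE 0.57, adjusted p = 0.00253). Shmt2, of mitochondrial one-carbon metabolism, was higher (log2 0.68, SE 0.15, adjusted p = 0.00166) and Mars, which encodes methionyl-tRNA synthetase, lower (log2 -0.54, SE 0.12, adjusted p = 0.00201). Ppp1r15a, which encodes the GADD34 subunit that restores translation after PERK signalling, was higher (log2 0.74, SE 0.29, adjusted p = 0.0493), near the threshold. Atf3, a stress-induced factor, was not called (-0.44, adjusted p = 0.693).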

How the data were processed

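The submitters' processing notes name RSEM, Bowtie 1.3.0 and the build GRCm38; no annotation release or strand setting is stated. The values deposited by the authors are expected counts per gene, which were rounded to whole numbers. Symbols, coordinates and lengths (exons of all transcripts) came from GENCODE M21 by Ensembl gene identifier. Low genes were left out by filterByExpr (edgeR 4.0.16, R 4.3.3), libraries were scaled by TMM, and glmQLFit (robust) and glmQLFTest were fitted to all 16 libraries, with Benjamini-Hochberg adjustment over 14553 genes; levels are edgeR CPM. Standard errors are the log2 change divided by the root of F, and 95% intervals use 1.96 of them.

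Members and lists were chosen with earlier results of these data known. Values in every library are given for members called in any comparison or naming a branch; other pathway genes are, per list, up to 3 called genes of lowest p in each comparison with room air, and always Creb3l3, Ppp1r15a, Atf3 and Ero1l. A planned comparison of protein tails was not done. Alternatives were other scalings, no filter, DESeq2 1.42.0, limma-voom 3.58.1, fewer groups, a ribosomal RNA covariate, length offsets, a replicate block and leaving out each library. On data simulated for intermittent hypoxia over room air (14553 genes), 67 of 102 genes changed by 1 on the log2 scale and 95 of 98 changed by 2 were called. Of 14353 genes left unchanged, 5 were called. In the real comparison 37.1% of genes were called, and the simulation held no group difference in ribosomal RNA share. The simulated rates need not hold for the real data. Replicate numbers did not pair the libraries, and within groups no pair agreed within sampling noise (chi-square per degree of freedom 65.2 to 498 over 24 pairs).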

Additional observations from a re-analysis of the deposited data

Results flagged for a closer look

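In 8 of 132 sets of 4 values (33 members in 4 groups), 1 library lay far from the other 3, where chance alone gives about 1 in 20. Hspa5 stood at 296 CPM in intermittent hypoxia replicate 1 (the others 213 to 220.3 CPM) and at 732 CPM in room air replicate 1 (the others 445 to 456 CPM). Manf stood at 103 CPM in the same room air library, with the others at 43.4 to 51.1 CPM. Room air replicate 1 was the highest of its group in 14 of the 17 chaperones, a count made after the values were seen. P4hb stood at 2101 CPM in sustained hypoxia replicate 3 (the others 1594 to 1643 CPM), and Derl2 at 126 CPM in the same library (the others 96.0 to 99.8 CPM). Xbp1 stood at 139 CPM in sustained hypoxia replicate 4 (the others 78.7 to 87.8 CPM). Derl3 stood at 2.07 CPM in intermittent hypoxia replicate 1 (the others 0 to 0.280 CPM). Atf4 was the only low value, at 45.4 CPM in intermittent hypoxia replicate 3 (the others 53.7 to 54.9 CPM).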

How the results depend on the processing

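The members called were 19 in intermittent hypoxia over room air, 3 in overlap hypoxia over room air, 0 in sustained hypoxia over room air, 5 in overlap over intermittent hypoxia, 0 in overlap over sustained hypoxia, 16 in intermittent over sustained hypoxia and 0 in the departure from additivity. With the ribosomal RNA share as a covariate they were 2 in intermittent hypoxia over room air, 0 in overlap over intermittent hypoxia and 0 in intermittent over sustained hypoxia, where 0.529%, 0.0275% and 0.00687% of all genes were called. There the signs of Syvn1 in intermittent hypoxia over room air (-0.23), and of Sel1l and Ern1 in intermittent over sustained hypoxia (-0.24 and -0.056), turned. DESeq2 gave 5 in overlap hypoxia over room air, 3 in overlap over sustained hypoxia and 3 in the departure, and limma-voom gave 6, 5 and 2 in the same comparisons. In overlap over intermittent hypoxia, 3 were called with DESeq2 size factors, 2 with upper-quartile scaling, 2 with limma-voom and 0 with only the compared groups (which called 0 of 13686 genes), while DESeq2 called 7 and offsets for gene length 6. Without the filter, 1 was called in the departure. Leaving out 1 library gave 14 to 20 in intermittent hypoxia over room air, 0 to 3 in overlap hypoxia over room air, 0 to 0 in sustained hypoxia over room air, 0 to 5 in overlap over intermittent hypoxia, 0 to 2 in overlap over sustained hypoxia, 13 to 17 in intermittent over sustained hypoxia and 0 to 2 in the departure. The cause of these differences was not tested. Depth of 10940275 counts in overlap hypoxia replicate 3 limits genes near 1 CPM most.

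The libraries share only replicate numbers: deviations of same-numbered libraries from their group means correlated between -0.10 and 0.18 over 24 pairs (mean 0.0363, against -0.012 over 72 pairs with other numbers). A replicate block left 17 members called in intermittent hypoxia over room air, 4 in overlap hypoxia over room air, 5 in overlap over intermittent hypoxia and 16 in intermittent over sustained hypoxia, and 2 in the departure.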
